A study of Arabidopsis thaliana with 8 samples.

Results

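Transcript levels in whole Arabidopsis thaliana seedlings were compared between the clf-28 swn-7 double mutant and the clf-28 single mutant, which asks what a missing SWN adds to plants that already lack CLF. The comparison rests on 4 of the 8 arrays of the series, chosen by genotype alone, with 2 arrays of clf-28 swn-7 and 2 of clf-28. The double mutant carries both mutant alleles and was grown for 12 days, and clf-28 carries the clf-28 allele alone and was grown for 10 days. Both are labelled growth stage 1.03, both were cold-treated as seed for 3 days and grown on agar medium, and RNA came from the whole plant. Genotype and age move together, so an effect of SWN loss and an effect of 2 more days of growth cannot be told apart in any value below. The other 4 arrays, 2 of swn-7 and 2 of wild type (Columbia), all from plants of 10 days, entered the fit and are used here to set the same loss of SWN beside plants that keep CLF. The labels number 2 replicates for each genotype without saying that they were grown apart, so a p-value here reflects how far these particular arrays differ, and that spread may be technical.

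CLF (CURLY LEAF) and SWN (SWINGER) encode the catalytic subunits of Polycomb repressive complex 2 in the plant body. The complex places methyl groups on lysine 27 of histone H3, a mark that keeps genes of other developmental phases silent, such as seed and flower genes in leaves. Since either enzyme can occupy the catalytic position, plants that lack both are the classic test of how far one stands in for the other. In Arabidopsis such double mutants are known to lose normal organ identity after germination and to form callus-like and embryo-like tissue. CLF and SWN themselves are not named in the probe annotation used here and were not analysed here, so the array signals give no check of the genotype labels.

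Each array gives 1 signal per probe set, scaled by the authors to about the same trimmed mean. Signals under a floor of 10 were set to 10 and log2 was taken. Of 22746 probe sets, 17332 lay above the floor on at least 2 of the 8 arrays and were tested with limma. A probe set is called when its Benjamini-Hochberg adjusted p over all 17332 is below 0.05. Where 1 or both arrays of the lower genotype sat at the floor, the fold change is a lower bound and is written "at least". A genotype with both arrays at the floor shows no spread. For such genes a small SE and adjusted p come partly from the floor. Of the probe sets tested, 776 passed the filter only through the double-mutant arrays, so a rise was the only change they could show. The double-mutant arrays correlated at 0.974 and the clf-28 arrays at 0.986 over all tested probe sets, against 0.718 to 0.764 between an array of one and an array of the other. The swn-7 replicate 2 array stood apart in its low signals for plastid-encoded transcripts, which are given with those transcripts. Probe sets at least 2-fold apart between arrays of 1 genotype numbered 554 in the double mutant and 161 in clf-28.

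The double mutant differed from clf-28 at 7799 of 17332 probe sets (45.0%), with 4042 higher (23.3%) and 3757 lower (21.7%). The largest changes were upward: 122 called probe sets were at least 32-fold higher and 26 at least 32-fold lower, while at least 8-fold changes numbered 306 higher and 356 lower. Both arrays of one genotype lay beyond both arrays of the other at 13246 probe sets (76.4%), so a lack of overlap between 2 and 2 arrays is common here. The 95% interval of the log2 change stayed within 2-fold in either direction at 7082 probe sets, some of them among the calls. Over the floor in both double-mutant samples but in neither clf-28 sample were 712 probe sets, 547 of them called, and 681 lay the other way round, 454 of them called. The count of calls was 5074 without clf-28 swn-7 replicate 1, 5090 without clf-28 replicate 1 and 5096 without clf-28 replicate 2. Higher calls then numbered 2255, 2425 and 2469.

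Many of the genes with the largest rises are known from seeds. LEA18, of the late embryogenesis abundant class made by drying embryos, gave signals of 4502 and 4994 on the double-mutant arrays and lay at the floor on both clf-28 arrays, at least 474-fold higher (log2 8.89, SE 0.18, adjusted p = 6.60e-07). ICL, the isocitrate lyase of the glyoxylate cycle that turns seed oil into sugar, gave 4612 and 4485 in the double mutant, with both clf-28 arrays at the floor (at least 455-fold, log2 8.83, SE 0.37, adjusted p = 4.16e-06). The other 8 of the 10 largest rises with a gene symbol spanned at least 170-fold to at least 359-fold. They were the beta-glucosidase gene BGLU19, the LEA genes AtLEA4-1, M17, LEA4-5 and LEA, the vicilin-like storage protein gene PAP85, the oil-body oleosin gene OLEO3, and ATOEP16-2, an outer plastid envelope protein gene known from seeds. These 10 were chosen for a large rise without overlap between the arrays, so their separation from clf-28 is not a further result. Their clf-28 signals never exceeded 18.1. LEA18, AtLEA4-1, LEA and ATOEP16-2 were at the floor on every array outside the double mutant, so a rise was the only change they could show. Among genes of any name, AT1G47540 (5023 and 4889 in the double mutant) and AT2G28490 (4957 and 4728) rose by log2 8.95 and 8.92 over clf-28 arrays that were all at the floor.

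**Figure D1:**
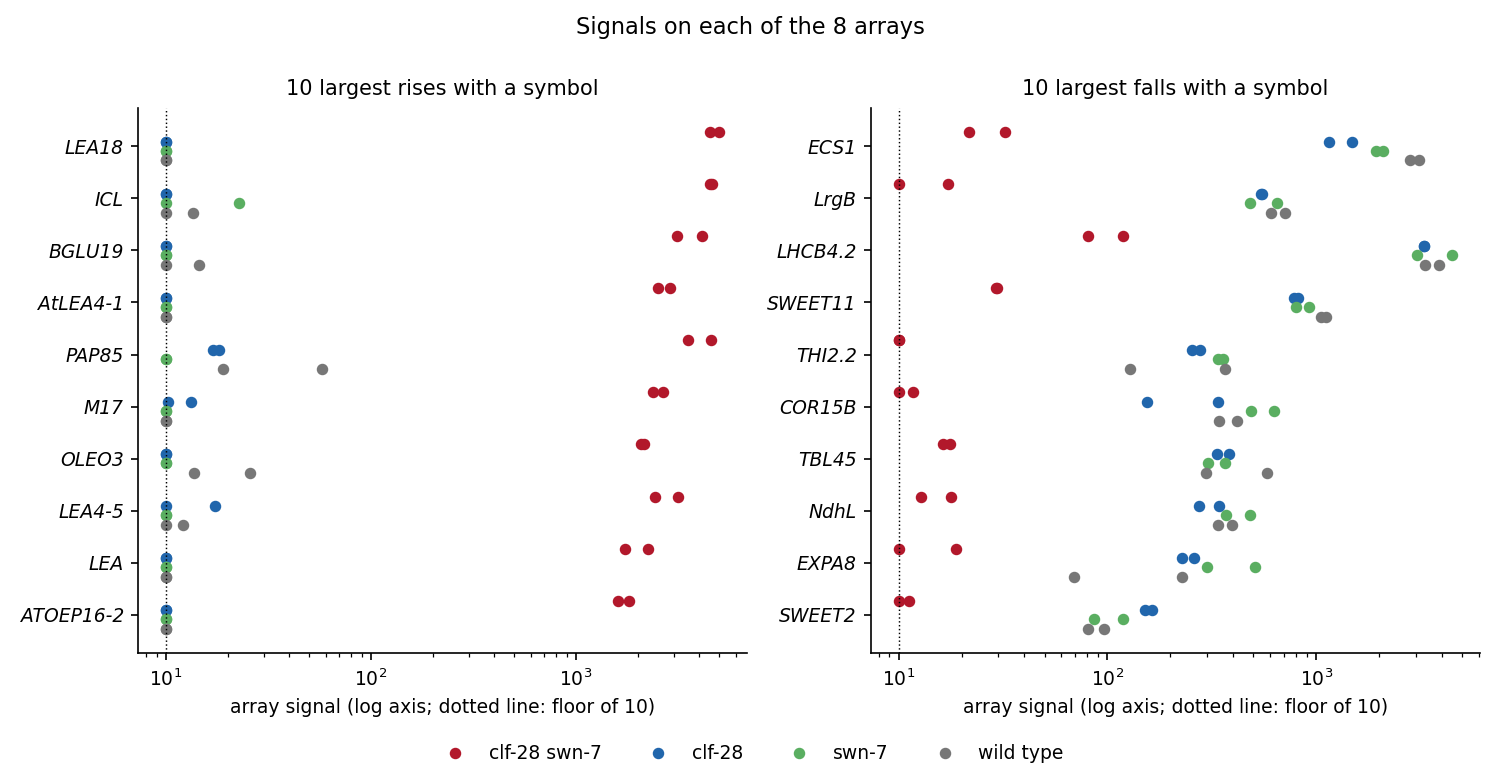
Array signals on a logarithmic horizontal axis for the 10 genes with a symbol that rose most (left) and fell most (right) in clf-28 swn-7 relative to clf-28, with 1 point per array and genotypes by colour; the dotted line is the floor of 10. In the left panel both double-mutant arrays stand near or above 1594 while the other 6 arrays stay at 57.9 or below. In the right panel the double-mutant points sit to the left of both clf-28 points. Genes in both panels were chosen for a lack of overlap between these genotypes.

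The annotation names 6 of 19 listed seed storage and oil body genes, so most of the list was not examined. Of these 6, all tested, 5 rose and 1 fell, beside 23.3% higher and 21.7% lower over all probe sets. Their median log2 change was 5.42, beside 0.09 over all probe sets. PAP85 had 4552 and 3518 in the double mutant, against 16.9 and 18.1 in clf-28 (log2 7.84, SE 0.46, adjusted p = 1.82e-05). OLEO3 had 2146 and 2080 in the double mutant, with clf-28 at the floor on both arrays (log2 7.72, SE 0.29, adjusted p = 2.90e-06). The other 4 members were vacuolar processing enzymes, proteases that mature proteins in the vacuole, of which 3 rose and 1 fell. BETA-VPE, the enzyme that processes storage proteins in seeds, gave 2783 and 2519 in the double mutant, against 50.02 and 40.4 in clf-28, a rise of 58.9-fold (log2 5.88, SE 0.29, adjusted p = 8.34e-06). DELTA-VPE, known from the seed coat, gave 449.9 and 839 in the double mutant, against 23.2 and 16.6 in clf-28 (log2 4.97, SE 0.32, adjusted p = 2.85e-05). GAMMA-VPE, the main enzyme of vegetative tissue, fell 2.58-fold, with 156 and 197 in the double mutant, against 442 and 464 in clf-28 (log2 -1.37, SE 0.16, adjusted p = 5.48e-04). ALPHA-VPE, also known as a vegetative enzyme, rose by log2 2.13 (SE 0.37, adjusted p = 0.00305). For all 4 enzymes the genotypes did not overlap, as for 76.4% of all probe sets.

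LEA proteins protect cells during drying, and some also respond to cold or drought in leaves. The list of LEA and dehydrin genes held 26 entries, and only 9 of its genes are named in the annotation. Of these 9, all tested, 7 rose, 1 fell and 1 did not pass, beside 23.3% higher and 21.7% lower over all probe sets. Their median log2 change was 2.92, beside 0.09 over all probe sets. For 3 of the 9, no more than 1 of the other 6 arrays lay above the floor, so they were tested only through the double mutant. M17 had 2660 and 2370 in the double mutant, against 10.3 and 13.3 in clf-28, a rise of 215-fold (log2 7.75, SE 0.21, adjusted p = 7.49e-07). LTI30, a dehydrin that clf-28 seedlings already expressed, had 1204 and 1519 in the double mutant, against 495 and 452 in clf-28 (log2 1.52, SE 0.32, adjusted p = 0.00751). COR47, a cold-induced dehydrin, went against the list with 105 and 150 in the double mutant, against 1534 and 1463 in clf-28 (log2 -3.58, SE 0.29, adjusted p = 8.73e-05). The cold-regulated chloroplast protein gene COR15B fell with it, at 11.7 and the floor in the double mutant, against 339 and 155 in clf-28 (at least 21.2-fold, log2 -4.40, SE 0.35, adjusted p = 7.19e-05). COR15A fell by log2 1.75, and the value was -2.34 without clf-28 swn-7 replicate 2, -1.17 without replicate 1, and no longer passed without clf-28 replicate 1 (adjusted p = 0.0612). The defensin gene PDF1.2 (log2 0.17) did not pass. Leaving out either double-mutant array lowered the number of LEA rises. LEA18, AtLEA4-1 and M10 were then above the floor on a single remaining array and were not tested.

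The annotation names 4 of 25 listed genes of seed lipid synthesis and reserve mobilisation, and the 3 other than ICL did not pass. SDP1, the lipase that starts oil breakdown, gave 187 and 170 in the double mutant, against 160 and 157 in clf-28 (log2 0.17, SE 0.14). GPDHp (log2 0.25), of glycerolipid synthesis, and AIM1 (log2 0.23), of peroxisomal fatty acid breakdown, did not pass either. Thus 1 of the 4 tested members rose, beside 23.3% higher over all probe sets.

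Only 3 of 24 listed regulators of embryo and seed maturation are named in the annotation, so most of the list was not examined. EEL, a bZIP transcription factor of maturing seeds, gave 405 and 351 in the double mutant, against 20.8 and 12.6 in clf-28, a rise of 23.3-fold (log2 4.54, SE 0.28, adjusted p = 2.48e-05). BBM (BABY BOOM), an AP2-type factor that can start embryo formation, had 66.8 and 54.6 in the double mutant and the floor on both clf-28 arrays (at least 6.04-fold, log2 2.59, SE 0.16, adjusted p = 2.71e-05). BZIP53, a partner of seed maturation factors, was measured at 443 and 414 in the double mutant, against 339 and 401 in clf-28, and did not pass (log2 0.22). So 2 of 3 tested members rose, beside 23.3% higher over all probe sets. BBM was at the floor on every array outside the double mutant and could only rise. Without either double-mutant array BBM was not tested. LBD16, a factor of lateral root initiation and callus formation and the one member of the callus list that was tested, gave 284 and 242 in the double mutant, against 13.8 and the floor in clf-28 (at least 22.3-fold, log2 4.48, SE 0.34, adjusted p = 5.98e-05).

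In 1 small family of auxin genes, YUC4 rose and YUC2 fell. YUC4 was tested only through the double mutant, so a rise was the only change it could show. YUC4, an auxin biosynthesis enzyme active in embryos and young organs, had 102 and 88.8 in the double mutant, with clf-28 at the floor (at least 9.53-fold, log2 3.25, SE 0.16, adjusted p = 8.57e-06). Its relative YUC2 fell to 11.1 and the floor in the double mutant, against 38.1 and 34.1 in clf-28 (at least 3.43-fold, log2 -1.78, SE 0.19, adjusted p = 2.99e-04). IAA29, an Aux/IAA repressor of auxin response, was at 11.1 and the floor in the double mutant, against 119 and 146 in clf-28 (at least 12.5-fold, log2 -3.65, SE 0.74, adjusted p = 0.00607). The cytokinin response regulators RR16 (log2 -0.30) and ARR15 (log2 0.11) did not pass. Without either double-mutant array YUC4 was not tested, which left 0 rises in the hormone list.

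The largest falls were smaller than the largest rises. ECS1, a cell wall protein gene, gave 32.2 and 21.8 in the double mutant, against 1481 and 1153 in clf-28, a 49.4-fold fall (log2 -5.63, SE 0.22, adjusted p = 2.96e-06). LrgB, the plastid transporter that moves photorespiratory glycolate and glycerate, was at the floor and 17.2 in the double mutant, against 547 and 546 in clf-28 (at least 41.7-fold, log2 -5.38, SE 0.26, adjusted p = 8.29e-06). THI2.2, a thionin gene of the antimicrobial peptide class, was at the floor on both double-mutant arrays, against 276 and 254 in clf-28 (at least 26.5-fold, log2 -4.73, SE 0.41, adjusted p = 1.20e-04). In none of the 10 largest falls with a symbol did a double-mutant array exceed 119, and clf-28 signals ran between 151 and 3301. Among genes of any name the largest falls were AT3G62550 (log2 -6.12, SE 0.59), AT4G22490 (log2 -5.98, SE 0.14) and AT5G48490 (log2 -5.94, SE 0.38). The AT3G62550 change was -5.23 without clf-28 swn-7 replicate 1 and -7.01 without clf-28 swn-7 replicate 2.

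Most nuclear photosynthesis genes that could be tested fell in the double mutant, beside 21.7% lower over all probe sets. The annotation names 7 of 48 listed light-harvesting and photosystem genes and 3 of 21 Calvin cycle genes, so most of both lists was not examined. Of 7 tested light-harvesting and photosystem genes, 6 fell and 1 rose (median log2 -3.76), and all 3 tested Calvin cycle genes fell (median log2 -3.37), beside a median of 0.09 over all probe sets. PSAN, a photosystem I subunit, had 113 and 192 in the double mutant, against 1909 and 2119 in clf-28 (log2 -3.77, SE 0.26, adjusted p = 4.17e-05). PSAE-1 (log2 -3.63), PSBY of photosystem II (log2 -3.82) and ATPC1 of the chloroplast ATP synthase (log2 -2.46) fell alongside. RCA, the activase of Rubisco, gave 305 and 490 in the double mutant, against 4202 and 3808 in clf-28 (log2 -3.37, SE 0.29, adjusted p = 1.04e-04). PRK, which regenerates the CO2 acceptor, fell 13.02-fold (log2 -3.70, SE 0.26) and SBPASE 9.76-fold (log2 -3.29, SE 0.28). These counts of falls were the same without each of the 8 arrays in turn.

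The 3 isoforms of LHCB4, a minor antenna protein of photosystem II also called CP29, did not move alike. LHCB4.2 had 80.9 and 119 in the double mutant, against 3301 and 3283 in clf-28, a 33.6-fold fall (log2 -5.07, SE 0.25, adjusted p = 8.71e-06). LHCB4.1 fell 13.6-fold, with 258 and 336 in the double mutant, against 4092 and 3907 in clf-28 (log2 -3.76, SE 0.25, adjusted p = 3.05e-05). LHCB4.3 was instead higher, with 182 and 261 in the double mutant, against 90.6 and 103 in clf-28 (log2 1.17, SE 0.28, adjusted p = 0.0116). That call was lost without clf-28 replicate 1 (adjusted p = 0.0706) or without clf-28 swn-7 replicate 2 (adjusted p = 0.0702).

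Chlorophyll synthesis followed the same direction at smaller size. Of 8 tested genes of the tetrapyrrole pathway 6 fell and 0 rose, beside 21.7% lower over all probe sets. Their median log2 change was -1.96. CHLI2, a subunit of the magnesium chelatase that commits the pathway to chlorophyll, fell 8.74-fold, with 13.9 and 26.8 in the double mutant, against 175 and 163 in clf-28 (log2 -3.13, SE 0.33, adjusted p = 2.92e-04). CHLM, the next enzyme, had 159 and 210 in the double mutant, against 1158 and 1131 in clf-28 (log2 -2.65, SE 0.18, adjusted p = 3.28e-05). PORB, the light-dependent reductase, fell by log2 2.13, and HEMB1 and HEME1 of the common upstream steps fell by 1.76 and 1.79 on the log2 scale, and HEME2 fell 5.29-fold. The early-step genes GSA1 (log2 -0.72) and HEMA2 (log2 0.29) did not pass.

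Genes of the plastid NDH complex, which cycles electrons around photosystem I, were grouped with photosystem assembly factors and other chloroplast protein genes. The group was drawn up from gene symbols after the data were seen, and its counts are not for the NDH complex alone. Of 24 tested, 20 fell, 1 rose and 3 did not pass (median log2 -1.47), beside 21.7% lower over all probe sets. NdhL had 12.7 and 17.8 in the double mutant, against 342 and 276 in clf-28 (log2 -4.35, SE 0.23, adjusted p = 9.95e-06). NdhN (log2 -3.56), the thylakoid calcium-sensing protein gene CaS (log2 -3.54), PIFI (log2 -3.17) and CRR42 (log2 -2.90) were the next largest falls. Within the LIL3 pair, light-harvesting-like proteins that anchor chlorophyll synthesis, LIL3:1 fell 4.84-fold, with 118 and 105 in the double mutant, against 603 and 480 in clf-28 (log2 -2.27, SE 0.22, adjusted p = 1.81e-04). LIL3:2 had 584 and 842 in the double mutant, against 508 and 413 in clf-28 (log2 0.61, SE 0.20, adjusted p = 0.0376), a call lost without either clf-28 array, either swn-7 array or clf-28 swn-7 replicate 2 (adjusted p 0.0570 to 0.208).

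Transcripts encoded in the plastid genome were mostly not called. Of 69 such probe sets, 1 was called higher, 2 were called lower and 66 did not pass, beside 45.0% called over all probe sets. Their median log2 change was 0.18, with values between -1.31 and 1.37. The calls were psbM (log2 0.72, SE 0.19), psbE (log2 -1.18, SE 0.25) and psbF (log2 -0.70, SE 0.24), all photosystem II subunits. psbE had 554 and 712 in the double mutant, against 1412 and 1424 in clf-28 (adjusted p = 0.00779), and narrowly missed the threshold without clf-28 swn-7 replicate 1 (adjusted p = 0.0515). psbM lost its call without either clf-28 array or clf-28 swn-7 replicate 2 (adjusted p 0.0557 to 0.109), and psbF was not called with any 1 dropped of the wild-type, clf-28 or double-mutant arrays (adjusted p 0.0523 to 0.225). Depending on the array left out, 0 to 3 of the 69 were higher and 0 to 5 lower, and the median was -0.25 without clf-28 replicate 2. These transcripts varied widely between arrays. Their median signal was 454 and 625 in the double mutant, against 703 and 429 in clf-28, and it was 892 and 72.9 in swn-7, against 1129 and 969 in wild type. The swn-7 replicate 2 array thus stood far below the other 7. The list's median log2 change in swn-7 against wild type was -1.49 with 0 calls, and -0.03 without swn-7 replicate 2. Its median interaction was 1.45 with 0 positive and 1 negative call, 0.26 without swn-7 replicate 2, and 2.99 with 53 positive calls without swn-7 replicate 1.

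The double-mutant arrays were not equal in this respect. On clf-28 swn-7 replicate 2, 30 of the 34 nuclear photosynthesis, Calvin cycle and NDH or assembly genes had a higher signal than on replicate 1, against 39.6% of all probe sets tested. Relative to the clf-28 mean, the median log2 change of the light-harvesting list was -4.09 on replicate 1 and -3.39 on replicate 2, and that of the Calvin cycle list was -3.71 and -3.03. Both arrays lay far below clf-28. In RNA of whole seedlings, fewer green cells and less RNA per cell cannot be told apart.

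**Figure D2:**
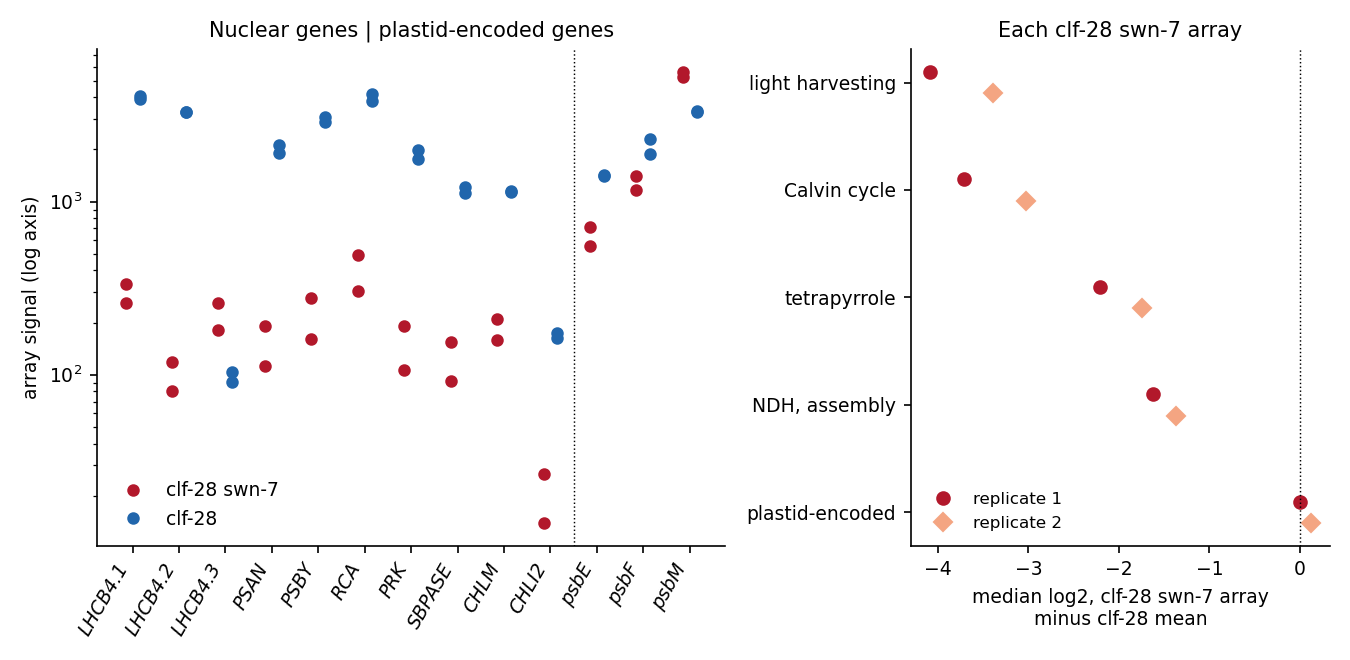
Left: array signals on a logarithmic vertical axis for 10 nuclear and 3 plastid-encoded chloroplast genes, with clf-28 swn-7 left of clf-28 for each gene and 1 point per array. Right: for each list, the median log2 change of each double-mutant array from the clf-28 mean; nuclear lists lie between -4.09 and -1.37 and the plastid-encoded transcripts near 0, with replicate 2 to the right of replicate 1 in every list.

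Sugar handling changed in both directions, beside 23.3% higher and 21.7% lower over all probe sets. SWEET genes encode sugar transporters, and 13 of the 16 listed members passed the filter, with 6 higher, 5 lower and 2 that did not pass (median log2 -0.42). Of the 13, 3 were tested only through the double-mutant arrays. SWEET11, which exports sucrose for phloem loading in leaves, had 29.2 and 29.4 in the double mutant, against 781 and 819 in clf-28, a 27.3-fold fall (log2 -4.77, SE 0.13, adjusted p = 8.08e-07). SWEET2, a vacuolar member, was at the floor and 11.2 in the double mutant, against 151 and 164 in clf-28 (at least 14.9-fold, log2 -3.89, SE 0.22, adjusted p = 1.47e-05). The vacuolar fructose carriers SWEET16 and SWEET17 fell by 1.73 and 1.80 on the log2 scale. SWEET7 was at 32.1 and 31.5 in the double mutant and at or under the floor elsewhere (at least 3.18-fold, log2 1.67, SE 0.14, adjusted p = 8.65e-05). AtVEX1 (log2 2.15), known from pollen, and SAG29, known from senescing leaves and seeds, were also higher, SAG29 by 4.58-fold. On the log2 scale the SAG29 change was 1.53 without clf-28 replicate 1 and 2.86 without clf-28 replicate 2.

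Among 9 starch and sucrose metabolism genes picked by name after the data were seen, 3 rose and 4 fell. For comparison, 23.3% of all probe sets rose and 21.7% fell. APL3, a large subunit of ADP-glucose pyrophosphorylase for starch synthesis, had 195 and 140 in the double mutant, against 23.5 and 28.8 in clf-28 (log2 2.67, SE 0.27, adjusted p = 2.50e-04). AMY1, a secreted alpha-amylase, gave 45.1 and 96.3 in the double mutant, against 17.02 and 15.5 in clf-28 (log2 2.02, SE 0.34, adjusted p = 0.00271). ATSPS4F, a sucrose phosphate synthase, was at the floor and 12.8 in the double mutant, against 93.4 and 97.8 in clf-28 (at least 8.45-fold, log2 -3.08, SE 0.27, adjusted p = 1.28e-04). Without clf-28 swn-7 replicate 2, falls in this group numbered 2.

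Wall and growth genes had more falls than rises in groups again drawn up by name after the data were seen. Over all probe sets 21.7% were lower and 23.3% higher. Of 14 expansins, which loosen walls, 6 fell and 1 rose, a share called close to the 45.0% of all probe sets. EXPA8 was at 18.7 and the floor in the double mutant, against 260 and 228 in clf-28 (at least 17.8-fold, log2 -4.15, SE 0.56, adjusted p = 9.29e-04), and EXPB3 fell 10.4-fold (log2 -3.37, SE 0.25). EXPA20 ran the other way, with 672 and 382 in the double mutant, against 23.6 and 26.4 in clf-28 (log2 4.34, SE 0.31, adjusted p = 5.08e-05). Of 14 xyloglucan and cellulose modifying enzymes, 8 fell and 2 rose, led by the endoglucanase gene GH9B13 (log2 -3.20, SE 0.20), while its relative GH9A3 rose (log2 1.74, SE 0.23). Of 17 TBL genes, which acetylate wall polysaccharides, 10 fell and 0 rose (median log2 -0.80). TBL45 had 17.6 and 16.3 in the double mutant, against 335 and 383 in clf-28 (log2 -4.40, SE 0.30, adjusted p = 3.54e-05). RALF-like peptide genes, signals that slow cell growth, fell in 5 of 7 cases, among them RALFL24 (log2 -1.49, SE 0.20). Tubulins fell in 2 of 7, TUB5 (log2 -1.15) and TUB6 (log2 -0.99), a share close to the 21.7% of all probe sets. TBL falls numbered 6 with replicate 1 of clf-28 left out, 5 with its replicate 2 left out and 6 without clf-28 swn-7 replicate 2. RALF-like falls numbered 3 without clf-28 replicate 2 or clf-28 swn-7 replicate 1, and TUB5 narrowly lost its call without clf-28 replicate 1 (adjusted p = 0.0507). The 1 tested secondary wall gene, GUT2, fell by log2 0.70 (adjusted p = 0.0250), which did not hold when any 1 of the 4 compared arrays was dropped (adjusted p 0.0543 to 0.154).

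The annotation names 3 of 22 listed root markers, and 2 of the 3 fell, beside 21.7% lower over all probe sets. EXPA7 and EXPA18, expansins of root hair cells, were both lower, EXPA18 with 13.4 and the floor in the double mutant, against 36.3 and 65.1 in clf-28 (log2 -2.07, SE 0.32, adjusted p = 0.00167). EXPA7 was at the floor on both double-mutant arrays, against 30.7 and 46.1 in clf-28 (log2 -1.91, SE 0.39, adjusted p = 0.00635). PYK10, the abundant beta-glucosidase of root ER bodies, had 4545 and 4054 in the double mutant, against 3298 and 3246 in clf-28, and did not pass (log2 0.39, SE 0.19, adjusted p = 0.130). Its signals, with those of the light-harvesting genes, place both root and shoot tissue in the clf-28 samples, as the whole-plant label says. Of 7 named anther and pollen markers, 5 stayed below the filter, and the other 2, EMS1 (log2 -0.60) and AGL65 (log2 0.14), did not pass. The 1 member of the epidermis list that was tested, through the double mutant alone, was TRY. This gene, a repressor of trichome formation, was at 31.2 and 59.0 in the double mutant, against the floor and 10.9 in clf-28 (log2 2.04, SE 0.28, adjusted p = 0.00101).

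**Figure D3:**
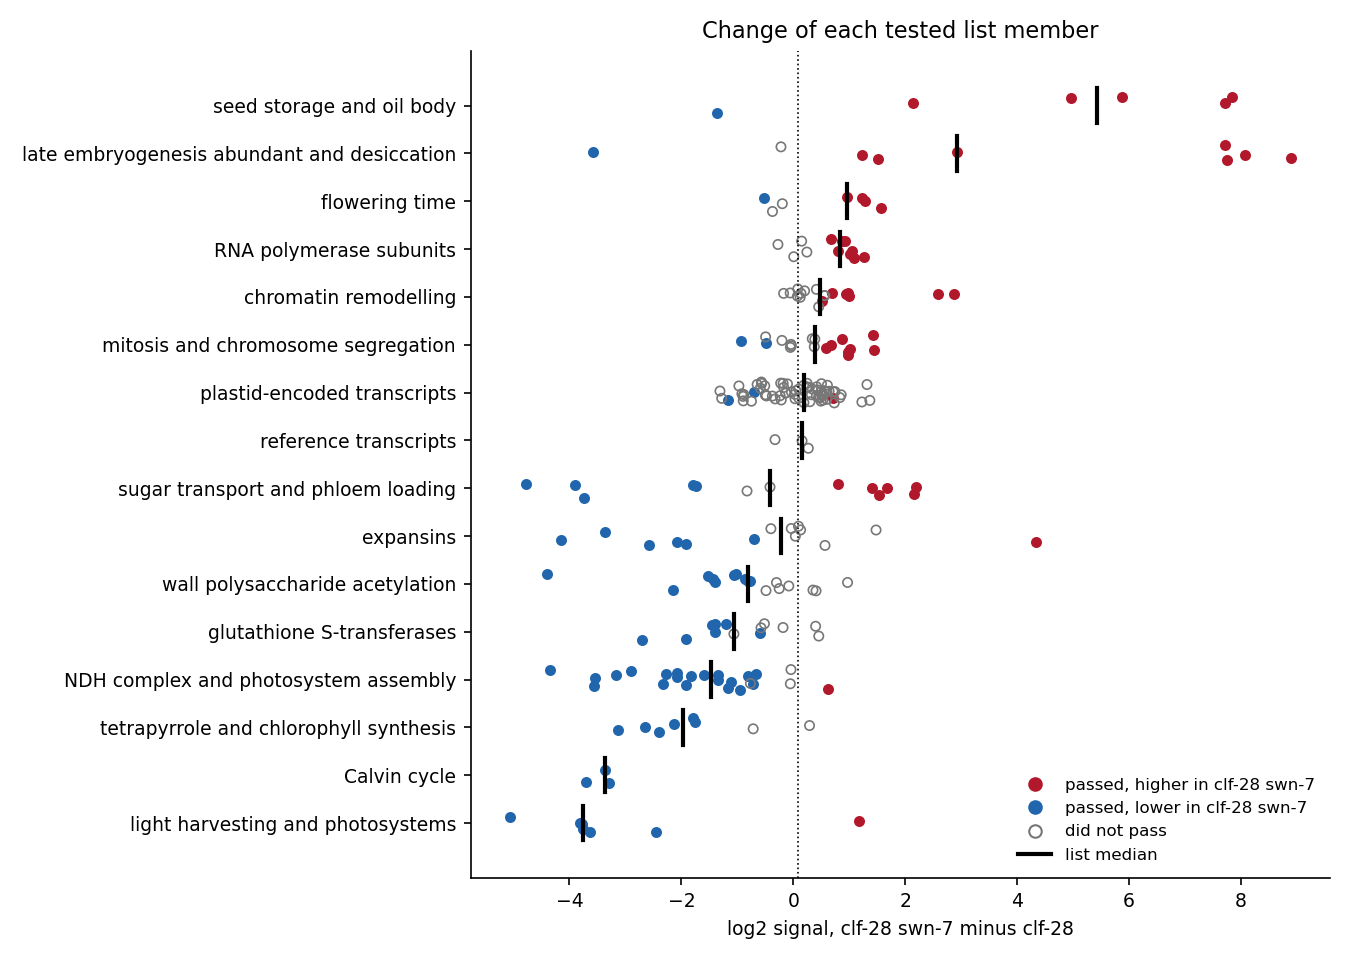
Log2 signal of clf-28 swn-7 minus clf-28 for each tested member of 16 lists, with filled points for members that passed the test, open points for those that did not, a bar for each list's median and a dotted line for the median of all 17332 probe sets (0.09). Seed lists extend to the right as far as 8.89, the chloroplast lists of nuclear genes lie to the left as far as -5.07, and the plastid-encoded transcripts spread around the dotted line.

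Flowering-time genes changed by modest amounts. Of 8 named, 7 passed the filter, and 4 rose and 1 fell (median log2 0.96). Over all probe sets 23.3% were higher and 21.7% lower. AGL71 and AGL72, 2 of the 4 rises, were at the floor on the 6 arrays outside the double mutant and could only rise. AGL24, a MADS-box promoter of flowering, had 146 and 110 in the double mutant, against 41.7 and 43.7 in clf-28 (log2 1.57, SE 0.24, adjusted p = 0.00178). AGL42 (71.8 and 47.2 in the double mutant, 21.6 and 26.9 in clf-28) and AGL71 (26.8 and 20.3 in the double mutant, the floor in clf-28), relatives of the flowering integrator SOC1, rose by log2 1.27 and 1.22. A further relative, AGL72, passed narrowly (log2 0.96, adjusted p = 0.0494). AGL19 was lower by log2 0.52 (adjusted p = 0.0341), and GI (log2 -0.37) and AGL18 (log2 -0.20) did not pass. The list was fragile: 1 to 3 members rose when 1 array was left out. AGL42 lost its call without clf-28 replicate 1 (adjusted p = 0.0609) or clf-28 swn-7 replicate 1 (adjusted p = 0.0508), AGL72 was not called with any 1 dropped of the wild-type, clf-28 or swn-7 arrays (adjusted p 0.0632 to 0.152), and AGL71 was not tested with 1 double-mutant array left. AGL19 lost its call without either clf-28 array, either swn-7 array or clf-28 swn-7 replicate 2 (adjusted p 0.0584 to 0.177). Floral organ identity genes of the MADS-box class are not named in the annotation and were not analysed here.

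Leaf, boundary and gynoecium regulators changed about as often as the 45.0% of all probe sets. In a group of 24 leaf, boundary and gynoecium regulators picked by name after the data were seen, 8 rose, 3 fell and 13 did not pass (median log2 0.33). SPT, a bHLH factor of carpel margin tissue, had 137 and 126 in the double mutant, against 24.8 and 28.4 in clf-28 (log2 2.31, SE 0.19, adjusted p = 8.58e-05). SHI, a style and auxin-related factor, had 37.5 and 41.2 in the double mutant and the floor in clf-28 (at least 3.93-fold, log2 1.98, SE 0.16, adjusted p = 8.42e-05). PTL and LAS, factors of sepal and axil boundaries, rose by log2 1.48 and 1.44. NGA3 and NGA4 of style development rose by 1.19 and 1.18, both from the floor or next to it. NGA4 was tested only through the double mutant and could only rise. YAB5, a polarity factor of the leaf underside, was at the floor on both double-mutant arrays, against 60.7 and 80.1 in clf-28 (at least 6.97-fold, log2 -2.80, SE 0.25, adjusted p = 1.34e-04). Its relative YAB3 had 45.9 and 66.05 in the double mutant, against 85.8 and 85.8 in clf-28, and did not pass (log2 -0.64, adjusted p = 0.0570), while the upper-side factor PHV rose by log2 0.75 (adjusted p = 0.0191), which did not hold when any 1 of the 4 compared arrays was dropped (adjusted p 0.0557 to 0.102). Rises in the group numbered 5 without clf-28 swn-7 replicate 1, and falls numbered 5 without either wild-type array.

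Of 4 stomatal lineage genes 1 rose and 3 fell, beside 23.3% higher and 21.7% lower over all probe sets. MUTE, which ends the dividing phase, had 35.5 and 34.03 in the double mutant and the floor on the other 6 arrays (at least 3.48-fold, log2 1.80, SE 0.14, adjusted p = 6.67e-05). SPCH (log2 -0.74), which starts the lineage, FMA (log2 -1.05), which closes it, and the secreted inducer STOMAGEN (log2 -1.19) were lower, with adjusted p values of 0.0381, 0.0179 and 0.0201. These 3 falls were the less secure: with clf-28 replicate 2 left out each had an adjusted p of 0.0968 or more, and SPCH also missed the threshold without either swn-7 array. MUTE could only rise, and it was not tested with 1 double-mutant array left.

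Chromatin and nuclear machinery genes changed by smaller steps, and 23.3% of all probe sets were higher for comparison. Of the Polycomb and trithorax list only ULT1 is named in the annotation. This trithorax-group gene, known as an antagonist of Polycomb repression, had 212 and 239 in the double mutant, against 34.04 and 41.6 in clf-28 (5.99-fold, log2 2.58, SE 0.36, adjusted p = 0.00102). Its wild-type signals were 164 and 71.2, so the double mutant stood further from clf-28 than from plants with both enzymes. In groups picked by name after the data were seen, 7 of 18 chromatin remodelling genes rose and 0 fell (median log2 0.48), while 11 did not pass. Of the 18, 3 were tested only through the double mutant and could only rise, among them the SNF2-type gene CHR42 with 76.7 and 70.3 in the double mutant and the floor everywhere else (at least 7.35-fold, log2 2.88, SE 0.15, adjusted p = 1.13e-05). CHR17, an ISWI-type remodeller, rose by log2 0.98 (SE 0.18, adjusted p = 0.00376), and the demethylase gene DME did not pass (log2 0.20). RNA polymerase subunits rose in 8 of 12 cases and fell in 0 (median log2 0.84). NRPC1, the largest subunit of RNA polymerase III, had 62.5 and 57.6 in the double mutant, against 25.5 and 24.5 in clf-28 (log2 1.26, SE 0.25, adjusted p = 0.00500). NRPB6A, a small subunit, rose 2.12-fold (SE 0.13 on the log2 scale, adjusted p = 5.01e-04). Of 18 mitosis and replication genes 8 rose and 2 fell (median log2 0.38), with POLA3 of DNA polymerase alpha at 143 and 131 in the double mutant, against 56.5 and 45.7 in clf-28 (log2 1.43, SE 0.19, adjusted p = 8.82e-04). The mitotic kinase gene AUR1 fell by log2 0.94, AUR2 did not pass (log2 0.38) and AUR3 rose by log2 1.44. AUR3 lost its call without either clf-28 array or clf-28 swn-7 replicate 1 (adjusted p 0.0518 to 0.0883), and the replication helicase gene PRL (log2 0.58) without the same arrays (adjusted p 0.0670 to 0.103). These counts depended on single arrays. Mitosis gene rises numbered 2 with replicate 1 of clf-28 left out, 2 with its replicate 2 left out and 1 with clf-28 swn-7 replicate 1 left out. Chromatin gene rises numbered 3, 4 and 2 without the same arrays in turn, and polymerase subunit rises 5, 4 and 5, with 5 also without clf-28 swn-7 replicate 2.

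Defence and specialised metabolism gave mixed results in groups also formed after the data were seen. Over all probe sets 23.3% were higher and 21.7% lower. Glutathione S-transferases fell in 7 of 13 cases and rose in 0 (median log2 -1.06), with GSTU18 at 15.6 and 22.4 in the double mutant, against 122.5 and 121 in clf-28 (log2 -2.71, SE 0.22, adjusted p = 8.61e-05). ER body and lectin genes rose in 5 of 8 cases and fell in 1. BGLU25 had 546 and 531 in the double mutant, against 142 and 130 in clf-28 (log2 1.99, SE 0.16, adjusted p = 8.09e-05), and JAL33 and NAI2 rose by log2 1.34 and 1.15, while the fall of JAL23 (log2 -1.70, adjusted p = 0.0350) was lost when any 1 clf-28, swn-7 or double-mutant array was left out (adjusted p 0.0567 to 0.143). Rises in this group numbered 3 without clf-28 replicate 1, clf-28 swn-7 replicate 1 or either swn-7 array. Of 6 glucosinolate genes 1 rose and 1 fell, and AOP3, the rise, could show no other change. AOP3, of side-chain modification, had 132 and 127.5 in the double mutant and the floor on the other 6 arrays (at least 12.96-fold, log2 3.70, SE 0.16, adjusted p = 4.51e-06), and BCAT4, of the earlier methionine chain elongation, fell by log2 1.90. CHI, annotated as a putative chitinase, gave 731 and 675 in the double mutant, against 85.3 and 95.2 in clf-28 (log2 2.96, SE 0.36, adjusted p = 5.68e-04), and of 5 flavonoid genes 1 rose and 2 fell, among them the anthocyanin enzyme gene DFR, lower by log2 0.85 (adjusted p = 0.0330), which did not hold when any 1 of the 4 compared arrays was dropped (adjusted p 0.104 to 0.125). Serine carboxypeptidase-like genes split 6 higher and 6 lower of 20, from scpl35 (log2 2.55, SE 0.28) to SCPL34 (log2 -3.15, SE 0.31), and without either clf-28 array 3 were higher and 2 lower.

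Other families were also picked after the data were seen. The CYP71B cytochromes P450 had 4 higher and 2 lower of 11, ATG8 autophagy genes 3 higher and 2 lower of 9, tetraspanins 2 higher and 1 lower of 10, and branched-chain amino acid catabolism 0 higher and 2 lower of 8. Exocyst and secretion genes had 1 call among 10, and 5 gibberellin receptor and signalling genes had 0 calls. The shares called lay above 45.0% for the CYP71B and ATG8 families and below it for the others. Single arrays moved these small counts: without clf-28 replicate 2 there were 2 higher CYP71B genes and 0 falls in branched-chain catabolism, and without clf-28 replicate 1 there was 1 higher ATG8 gene. Without clf-28 swn-7 replicate 2 there were 0 higher tetraspanin genes, 3 of whose 10 members were tested only through the double mutant. The exocyst call was lost without either clf-28 array or clf-28 swn-7 replicate 1. The 3 reference transcripts did not pass, with log2 changes of 0.27 for AT2G28390, 0.16 for AT4G34270 and -0.33 for PEX4.

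The genes that already differed between clf-28 and wild type were followed into the double mutant. There were 21 such probe sets (0.121% of those tested), 18 higher and 3 lower in clf-28, and 7 belong to a named gene. Both comparisons share the clf-28 arrays, so values in all 4 genotypes are given side by side. SWEET10, a sugar transporter, gave the floor and 12.8 in the double mutant, 158 and 144 in clf-28, and the floor on all 4 swn-7 and wild-type arrays (double mutant against clf-28: log2 -3.74, SE 0.19, adjusted p = 8.98e-06). AT5G39520 gave 11.8 and the floor in the double mutant, 158.5 and 273 in clf-28, the floor and 15.8 in swn-7, and 19.9 and 26.6 in wild type (log2 -4.26, SE 0.34). AT3G19550 gave 16.3 and 12.4 in the double mutant, 111 and 130 in clf-28, 10.8 and 10.6 in swn-7, and 12.2 and 13.7 in wild type (log2 -3.08, SE 0.21). In these 3 genes clf-28 lay above the other 3 genotypes, and for AT5G39520 the double mutant also lay below wild type.

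Other genes of this set kept or extended their clf-28 level. AT1G09500 gave 142 and 115.5 in the double mutant, 160 and 166 in clf-28, the floor in swn-7, and 13.6 and 17.1 in wild type, and did not pass between double mutant and clf-28 (log2 -0.35, SE 0.21). AT5G39220 gave 113 and 87.7 in the double mutant, 74.01 and 105.5 in clf-28, 10.4 and the floor in swn-7, and 14.4 and 12.1 in wild type. It did not pass between double mutant and clf-28 (log2 0.18, SE 0.25). AT1G03710 was higher again, with 90.7 and 91.7 in the double mutant, 53.8 and 58.5 in clf-28, and the floor on the other 4 arrays (log2 0.70, SE 0.18, adjusted p = 0.0149), although without any 1 of the 4 compared arrays the adjusted p was 0.0501 to 0.0865. AT4G01390, lower in clf-28 than in wild type, was lower still, at 10.4 and the floor in the double mutant, 27.5 and 34.1 in clf-28, near 60.8 on both arrays in swn-7, and 147 and 105.5 in wild type (log2 -1.58, SE 0.23, adjusted p = 0.00137). Over all 18 probe sets higher in clf-28, the double mutant was lower than clf-28 at 13, higher at 2 and not called at 3. The 18 were chosen for high values on the same clf-28 arrays, which favours lower calls here. These counts are therefore no test of what SWN loss adds. Over all probe sets 21.7% were lower.

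**Figure D4:**
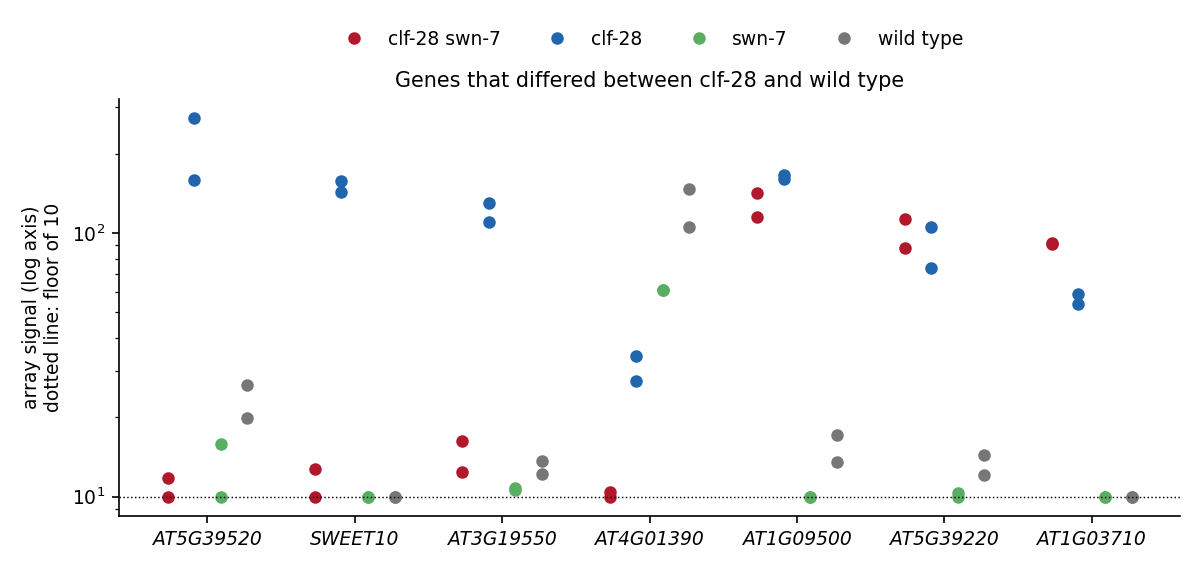
Array signals on a logarithmic vertical axis for the 7 named genes that differed between clf-28 and wild type, with 1 point per array and, from left to right within each gene, the double mutant, clf-28, the swn-7 single mutant and wild type; the dotted line is the floor of 10. SWEET10, AT3G19550 and AT5G39520 are high in clf-28 alone, while AT1G09500, AT5G39220 and AT1G03710 are high in the double mutant as well.

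Loss of SWN was also measured where CLF was present. In swn-7 against wild type limma called 0 probe sets, with 2117 at an unadjusted p below 0.05. The wild-type arrays were the least alike within a genotype, correlating at 0.958 against 0.974 to 0.986 within the other 3. The lack of calls therefore does not show a lack of effect. The interaction, which is the change from clf-28 to the double mutant minus the change from wild type to swn-7, tests the difference between those effects directly. It passed at 5378 of 17332 probe sets (31.0%), 2664 positive and 2714 negative, while scaling to a common array median gave 2107 and 3092. The light-harvesting genes lost in the double mutant had 6 of 7 negative interactions and the Calvin cycle genes 3 of 3, with median log2 changes of 0.04 and -0.10 in swn-7 against wild type. RCA, for example, changed by log2 -3.37 without CLF and by -0.18 with CLF (interaction -3.19, SE 0.41, adjusted p = 0.00128). BETA-VPE changed by 5.88 without CLF and by -0.47 with CLF (interaction 6.35, SE 0.41, adjusted p = 7.11e-05). AGL24 changed by 1.57 and -0.44 in the same order (interaction 2.01, SE 0.34, adjusted p = 0.00462), and LBD16 by 4.48 and -0.02 (interaction adjusted p = 6.02e-04). For genes at the floor in all 3 other genotypes, such as LEA18 and BBM, the interaction equals the change from clf-28. Not every call carried an interaction: COR15A (-1.59), GUT2 (-0.86), FMA (-1.01), LHCB4.3 (0.98) and SWEET1 (0.58) did not pass, with adjusted p values of 0.0629, 0.0547, 0.0876, 0.0978 and 0.110. The age difference lies on 1 side of the interaction only, so it too cannot be told apart from genotype. The count was 3504 without clf-28 swn-7 replicate 1, 3535 without clf-28 replicate 1 and 3441 without clf-28 replicate 2.

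**Figure D5:**
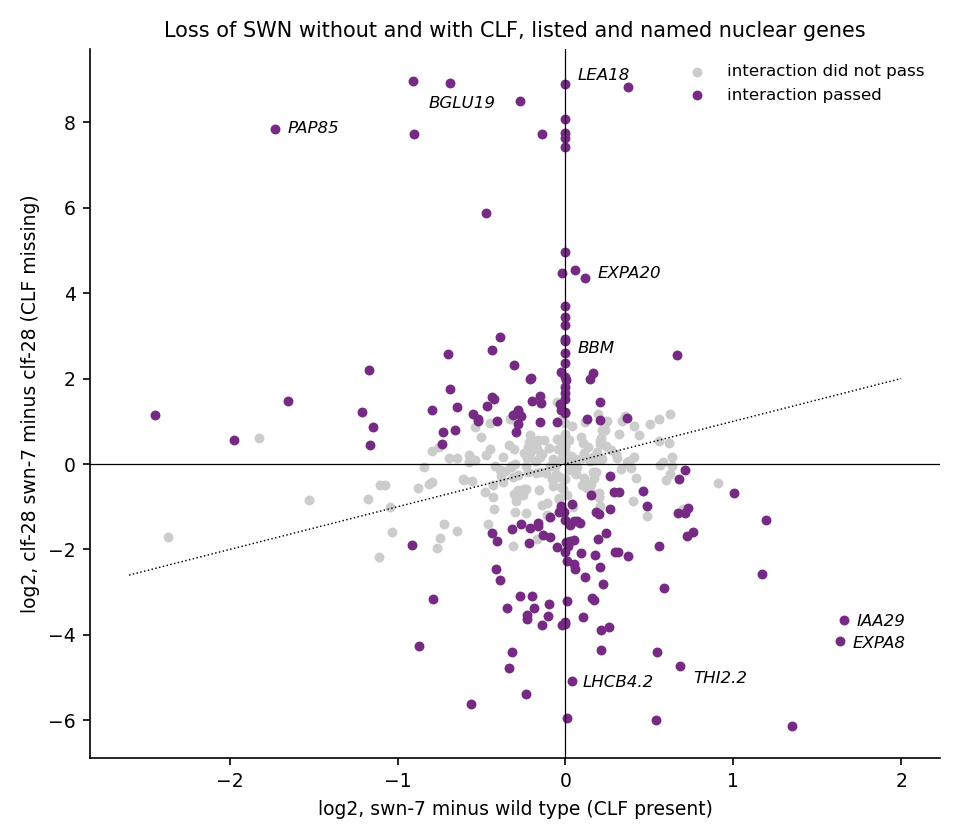
Log2 change on loss of SWN when CLF is missing (clf-28 swn-7 minus clf-28, vertical axis) and when CLF is present (swn-7 minus wild type, horizontal axis) for the listed and named nuclear genes, coloured by whether the interaction passed; the dotted line marks equal changes. Points spread from -6.12 to 8.95 on the vertical axis, and no gene passed the test on the horizontal axis.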

How the data were processed

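Members and gene lists were chosen with earlier results of these data known. The authors deposited linear array intensities, 1 per probe set and array, of the Affymetrix ATH1 array; the submitters' processing notes list MAS5 and GCOS, without versions. No further scaling was applied. Signals were floored at 10 and put on the log2 scale, and 64 control probe sets were dropped. Limma 3.58.1 (R 4.3.3; lmFit, eBayes with intensity trend, two-sided) was run on the 8 arrays together with a mean for each genotype, leaving 4 residual and 3.43 prior degrees of freedom, and was tested on simulated data. Errors are limma's SE. Of the probe sets, 13513 carry a single symbol in the platform annotation, 503 carry several and 8794 are unnamed here; 13436 were updated through RefSeq. Where several probe sets share a gene, that of highest mean was used. Apart from the groups drawn up from gene symbols, the lists held 515 entries, of which 97 are named in the annotation. Precision is limited by having 2 arrays per genotype.

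The text names the 10 largest rises and falls with a symbol and the 3 with any name (past the threshold, arrays not overlapping), 4 members per list by adjusted p, the 3 highest and lowest interactions, the named genes called in clf-28 against wild type, and further list members picked after their values were seen. Alternatives were other floors, an added constant, quantile and median scaling, other filters, eBayes variants, the 4 compared arrays alone, a replicate block, a 2-fold minimum and leaving out each array.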

Additional observations from a re-analysis of the deposited data

Results flagged for a closer look

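The change from clf-28 to the double mutant differed from the change from wild type to swn-7 at 5378 probe sets, by the interaction test. Age differs on 1 side of this test only, so it cannot be told apart from genotype. The 3 highest interactions with a gene symbol were PAP85 at 9.57, LEA18 at 8.89 and BGLU19 at 8.76 on the log2 scale. PAP85 was at the floor on both swn-7 arrays, against 19.0 and 57.9 in wild type, so the wild-type arrays, which differ from each other, contribute to its value. The 3 lowest were EXPA8 at -5.79, THI2.2 at -5.41 and IAA29 at -5.31. In all 3 the wild-type arrays lay wide apart, at 69.2 and 229 for EXPA8, 127.9 and 364 for THI2.2, and 30.3 and 205 for IAA29, with wild type replicate 1 the lower each time. Groups of 2 arrays are too small for a test of single outlying arrays.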

How the results depend on the processing

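The count of calls between clf-28 swn-7 and clf-28 ranged from 5074 to 8410 when 1 array was left out, higher calls from 2255 to 4387, lower calls from 2627 to 4023 and interactions from 3441 to 5763. With at least 2-fold required there were 4768 calls, 2161 of them higher. The other alternatives gave counts within 1.5 times those reported. With the replicate block 7761 were called, 4013 higher and 3748 lower, with 5272 interactions; residuals of same-numbered arrays of the compared genotypes correlated at 0.058, so the numbers were not taken to pair the samples. Scaling arrays to equal medians gave 3588 higher and 3946 lower, and moved the median interaction of all probe sets to -0.035, against 0.119 without it, so small interactions are relative to that shift. Of 149 named genes that passed, 115 passed under every alternative that tested them, 34 lost the call in at least 1, and 17 were not tested in at least 1. A floor of 20 ended the calls of AGL71, NGA3, NGA4, APL4, SPCH and JAL23. Among genes that did not pass, AIM1 ranged from -0.062 without clf-28 swn-7 replicate 2 to 0.52 without clf-28 swn-7 replicate 1. AGL65 was -0.041 without clf-28 replicate 1, and ranged from -0.255 without clf-28 swn-7 replicate 1 to 0.524 without clf-28 swn-7 replicate 2. AT5G39220 was -0.01 without clf-28 swn-7 replicate 1, and ranged from -0.08 without clf-28 replicate 1 to 0.431 without clf-28 replicate 2. The cause was not tested. Where 1 array of a genotype is left, its spread is taken from the other genotypes.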
